A study of Drosophila melanogaster with 3 samples.

Results

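The nuclear pore and its transport receptors were described in OSS cells through 37 genes, of 11982 named genes measured. The members were chosen by symbol, with a fixed pattern of nucleoporin, karyopherin, transportin and Ran-cycle names in the platform annotation. Each has a probe set annotated to a single gene. The pattern goes by spelling and leaves out some genes of like name, among them RanBPM, RanBP3, Ranbp21, alphaKap4 and Ran-like. These are counted with the genes outside it. The symbols alone decide membership, and no level or test enters the rule. Of the names the choice covers, Mtor is annotated as Mgtor and is described with the genes outside it, and Gp210 and sbr were not analysed here.

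OSS cells are a stable line of Drosophila melanogaster ovarian somatic cells, which the labels assign to follicle stem cells and mark by Fas III. All samples formed 1 group of 3, in exponential growth in insect medium with serum, insulin, glutathione and fly extract, with no further treatment and with no genotype given beyond the line. Total RNA was converted to biotin-labelled cRNA and hybridised to expression arrays. Separate cultures are not stated for the 3 samples, and their spread, on which every SD and p-value rests, may thus be technical.

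The nuclear pore complex is a ring of nucleoporins set in the nuclear envelope. A scaffold of outer and inner rings holds channel nucleoporins rich in phenylalanine and glycine repeats, which let transport receptors through. Receptors of the importin beta family bind or release cargo according to the nucleotide state of the small GTPase Ran, while bulk mRNA uses a separate export receptor. In fly ovaries, pore subunits have also been tied to transposon silencing, a process that these arrays did not measure.

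Each probe set had a log2 expression level on each array, used as deposited. A level of 2.49 served as background. It is the 95th percentile of the means of 112 odorant and gustatory receptor genes, which ovarian cells were assumed not to use. Each gene was tested against it with limma, with Benjamini-Hochberg adjustment over all named genes, and an adjusted p under 0.05 in either direction made the call. Genes that passed in neither are called unresolved. A stricter level lay 1 log2 unit higher, at 3.49. Probe sets differ in affinity, so a higher value of one gene than of another does not measure more transcript, and the values of different genes below are not compared as amounts. The lowest deposited value was 2.39 on every array. Precision is limited by the small number of arrays. Of all named genes, 59.8% had values identical on the 3 arrays, so an SD of 0 describes the deposited summaries and understates the error. The labelled cell type was checked against its markers. All 4 measured follicle cell markers were above background, among them tj at 6.83 ± 0.69 (SD, n = 3), the 6 measured germline markers were below it, and Fas3 itself was not analysed here. Of markers of other cell types, 1 of 5 for testis, 2 of 4 for hemocytes and 1 of 3 for neurons were above background. The shares over all named genes were 45.7% above and 48.8% below, and the markers' part in the results was not tested. The testis gene was mia at 2.52 and the neuron gene elav at 2.72, both under the highest receptor gene at 2.79. Of the hemocyte genes, Hml and eater lay at the lowest value, while Pxn measured 4.69, 4.14 and 4.44, past the stricter level, and crq 3.54, 3.48 and 3.60.

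Signal over background was found for 35 of the 37 members (94.6%), and the remaining 2 were unresolved. Over all named genes 45.7% were above background and 48.8% below. Past the stricter level lay 26 of the 37, beside 25.2% of all named genes. The median of the members' means was 4.57, beside 2.47 over all named genes, and the means ran from 2.66 for Kap-alpha3 to 7.48 for Ran. The unresolved members were Nup153 and Fs(2)Ket, both with means over the background level and a wide spread between arrays. With the highest receptor gene, at 2.79, as the level, 33 of the 37 were above, beside 36.7% of all named genes. Kap-alpha3 and Nup160 lay under that level.

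**Figure D1:**
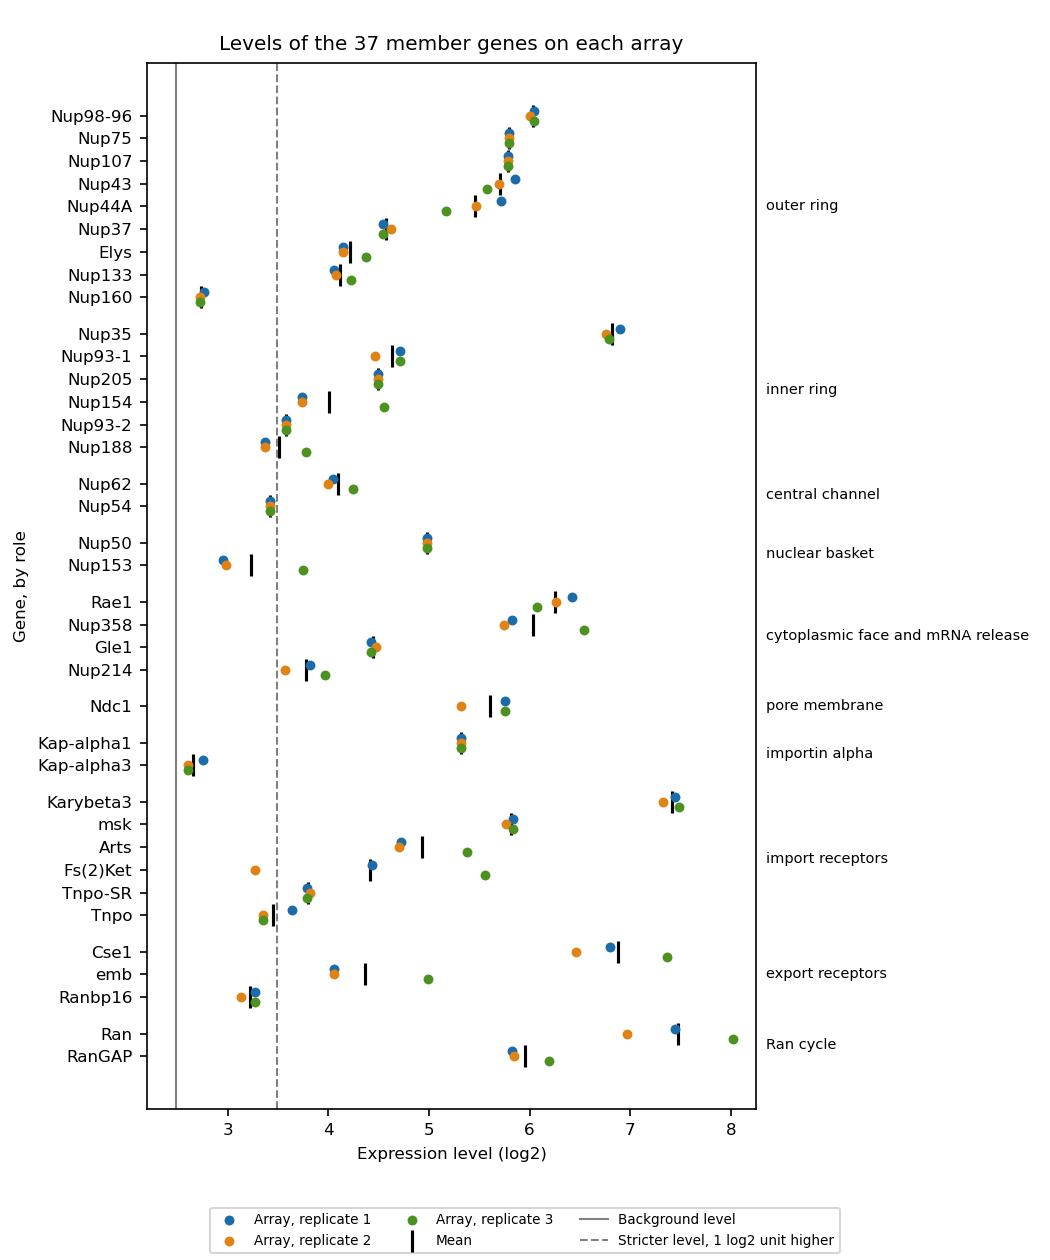
Expression level on the log2 scale (x axis) of each of the 37 genes (y axis, grouped by role) on the 3 arrays of OSS cells, with dots for arrays, a black tick for the mean, a solid line at the background level of 2.49 and a dashed line at the stricter level of 3.49. Every gene's mean lies to the right of the solid line, with Kap-alpha3 at 2.66 and Nup160 at 2.74 nearest to it.

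The outer ring, also called the Y complex, coats both faces of the pore. All 9 measured members had signal above background, and 8 of them passed the stricter level. Nup107, the subunit that gives the vertebrate complex its name, measured 5.79 on every array, as did Nup75, the fly counterpart of vertebrate Nup85. Nup98-96, whose single transcript encodes both the mobile nucleoporin Nup98 and the scaffold protein Nup96, measured 6.04, 6.01 and 6.04 (6.03 ± 0.022, SD, n = 3). The arrays lay close together for each of these genes.

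Nup43 measured 5.85, 5.70 and 5.58, and Nup44A, the fly Seh1, measured 5.72, 5.47 and 5.17. Both were highest on replicate 1 and lowest on replicate 3. Nup37 measured 4.55, 4.62 and 4.55. Elys, which starts pore assembly on chromatin in vertebrates, measured 4.15, 4.15 and 4.37. Nup133, a scaffold subunit, measured 4.06, 4.08 and 4.22, so that Elys and Nup133 were highest on replicate 3.

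Nup160 was the outer ring gene nearest to background. It measured 2.77, 2.73 and 2.73, which was 0.25 log2 units above the level (limma, adjusted p = 0.0014). The receptor gene with the highest mean, Gr39a at 2.79, lay over it, and with that gene as the level Nup160 was below background. With 1 spread pooled over genes it was unresolved (limma, adjusted p = 0.13). The other 8 outer ring genes were 1.63 log2 units or more above background.

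The inner ring anchors the channel and the membrane. All 6 measured members were above background, and 4 of them were above the stricter level. Nup35, which binds the pore membrane, measured 6.90, 6.76 and 6.79 (6.82 ± 0.073, SD, n = 3), and the large scaffold gene Nup205 measured 4.49 on every array. Its paralog Nup188 measured 3.37, 3.37 and 3.78, 1.02 log2 units above background (limma, adjusted p = 0.0067), and did not pass at the stricter level.

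Nup154, the fly counterpart of vertebrate Nup155 and a gene needed in fly oogenesis, measured 3.74, 3.74 and 4.56. It was 1.52 log2 units above background (limma, adjusted p = 0.013), with replicate 3 apart from the other arrays. Without replicate 1 it was unresolved (limma, adjusted p = 0.051). The fly has a pair of Nup93 genes, and both were above the stricter level. Nup93-1 measured 4.71, 4.47 and 4.71. Nup93-2 measured 3.59, 3.59 and 3.58. The pair cannot be ranked by amount, since their probe sets differ.

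The central channel is lined by Nup62, Nup58 and Nup54, of which Nup58 was not analysed here. Nup62 measured 4.05, 3.99 and 4.24 (4.10 ± 0.13, SD, n = 3), above the stricter level. Nup54 measured 3.42 on every array. That was 0.93 log2 units above background (limma, adjusted p = 4e-05) and below the stricter level. Its SD was 0, so the p-value rests on the spread of other genes.

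The nuclear basket faces the nuclear interior and meets chromatin and departing mRNA. Nup50, an importin alpha cofactor, measured 4.98, 4.98 and 4.98 and was above the stricter level. Nup153 measured 2.96, 2.98 and 3.75. All its values lay over the background level, but replicate 3 stood apart and the gene was unresolved (0.74 log2 units above, limma, adjusted p = 0.062). Without replicate 3 it was above background (0.48 log2 units, limma, adjusted p = 0.0068), and without replicate 1 or 2 it stayed unresolved (limma, adjusted p = 0.12 for each). The call of Nup153 also changed with the level and the variance model. It was above with bacterial control probe sets as background (limma, adjusted p = 0.046), and also with the pooled spread, centring or the dim-gene filter. With the highest receptor gene as the level it was unresolved (limma, adjusted p = 0.21), and with the testis and accessory gland background it was below.

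On the cytoplasmic face, nucleoporins strip export factors from mRNA and recycle Ran. All 4 measured members were above background. Rae1, an mRNA export factor that binds Nup98, measured 6.42, 6.26 and 6.07, lowest on replicate 3. Nup358, a Ran-binding scaffold with SUMO ligase activity in vertebrates, measured 5.82, 5.74 and 6.55, highest on replicate 3. Gle1, which activates the helicase that remodels exported mRNA, measured 4.43, 4.47 and 4.43. Nup214 measured 3.82, 3.57 and 3.97 and did not pass at the stricter level (limma, adjusted p = 0.14). Nup358 and Nup37 are neighbours in the RefSeq order of protein-coding genes, and whether this bears on their values was not tested. Of the membrane proteins that fix the pore in the envelope, Ndc1 measured 5.76, 5.32 and 5.76, above the stricter level and lowest on replicate 2.

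The importin alpha genes encode adaptors that carry classical nuclear localisation signals to importin beta. Kap-alpha1 measured 5.32 on every array. Kap-alpha3 measured 2.76, 2.61 and 2.61, only 0.17 log2 units above background (limma, adjusted p = 0.045). It was unresolved without any 1 of the arrays (limma, adjusted p from 0.082 to 0.11), and its probe set is of a type that can share sequence with other transcripts. The probe sets used for Ran, Nup44A, Tnpo and Fs(2)Ket are of the same type. Pen, the remaining classical importin alpha gene of the fly, lies outside the symbol rule and measured 8.45, 8.10 and 7.95.

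Of the 6 import receptors of the importin beta family, 5 were above background and 4 above the stricter level. Karybeta3 measured 7.45, 7.33 and 7.48 (7.42 ± 0.080, SD, n = 3). The gene msk, which encodes the importin that carries activated MAP kinase into fly nuclei, measured 5.84, 5.77 and 5.84. Tnpo-SR, whose protein imports SR splicing factors, measured 3.79, 3.82 and 3.79. Tnpo, the transportin of hnRNP proteins, measured 3.64, 3.35 and 3.35, with replicate 1 apart, and was 0.96 log2 units above background (limma, adjusted p = 0.0035).

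Arts, one of a pair of duplicated importin genes, measured 4.72, 4.70 and 5.38. A probe set shared with its duplicate Apl measured 4.96, 5.00 and 5.37. Both were highest on replicate 3, and the signal of one duplicate may include the other.

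Fs(2)Ket, the fly importin beta itself, had the widest spread of the members. Its probe set with the higher mean measured 4.43, 3.27 and 5.56 (4.42 ± 1.14, SD, n = 3), so the arrays spanned 2.29 log2 units. The gene was 1.93 log2 units above background in the mean and unresolved (limma, adjusted p = 0.058), although all 3 values lay over the level. A second probe set, of a type designed to match 1 gene, measured 3.50 on every array. Without probe sets of shared sequence, which leaves that one, the gene was above background (limma, adjusted p = 2.8e-05). That probe set had an SD of 0, so its p-value rests on the spread of other genes. With the mean of both probe sets the gene was also above background (limma, adjusted p = 0.022). Leaving out replicate 2 also gave a call above background (limma, adjusted p = 0.043), but leaving out replicate 1 or 3 did not (limma, adjusted p = 0.19 and 0.12). The probe sets disagreed both in level and in spread.

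Export receptors bind cargo together with Ran in the nucleus. All 3 measured members were above background, and 1 was above the stricter level. Cse1, which returns importin alpha to the cytoplasm, measured 6.80, 6.46 and 7.37 (6.88 ± 0.46, SD, n = 3). The gene emb encodes CRM1, the exporter of leucine-rich signals. It measured 4.06, 4.06 and 4.99, 1.88 log2 units above background (limma, adjusted p = 0.011), with replicate 3 apart. Ranbp16, a relative of vertebrate exportins, measured 3.27, 3.13 and 3.27, 0.74 log2 units above background (limma, adjusted p = 0.0013).

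Ran itself measured 7.44, 6.96 and 8.02 (7.48 ± 0.53, SD, n = 3), the highest mean among the members. RanGAP, which stimulates GTP hydrolysis by Ran in the cytoplasm, measured 5.82, 5.85 and 6.20. Both were above the stricter level and highest on replicate 3.

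The members also varied in how far the arrays agreed. Values were identical on all 3 arrays for 5 members, Kap-alpha1, Nup107, Nup205, Nup54 and Nup75, and identical on exactly 2 arrays for 16. Among all genes above background 27.9% were identical on 3 arrays and 29.4% on 2. The median SD of members that were not identical was 0.14 log2 units, beside 0.13 for genes above background. An SD over 0.5 was found for 3 members, Fs(2)Ket, Ran and emb.

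Replicate 3 lay over 0.5 log2 units above the mean of the other arrays for 8 of the 37 members (21.6%), and under it by that much for 0. These were Fs(2)Ket, emb, Ran, Nup154, Nup153, Nup358, Cse1 and Arts. Over all named genes the shares were 4.22% and 1.61%. Pearson correlations over all probe sets were 0.995 for replicates 1 and 2, 0.988 for 1 and 3, and 0.986 for 2 and 3. Replicate 2 alone was lowest for 37.8% of the members and 31.2% of all genes above background. The 8 include the unresolved Fs(2)Ket and Nup153, and among members above background the count was 6 of 35 (17.1%), beside 7.93% of all genes above background, with 3.33% of these under by that much. This count was made after the values were seen and carries no test. By role, 5 of the 8 encode receptors or Ran, of 13 such members, and 3 encode nucleoporins, of 24. None of the 9 outer ring genes was among them. Quantile normalisation of the arrays left the count at 8, as did centring each array on the genes above background. The median difference over genes above background was already 0 for each pair of arrays, so centring could change little. The mean difference was 0.0018 for replicate 3 minus 1, 0.11 for replicate 3 minus 2 and -0.11 for replicate 2 minus 1. How far quantile normalisation could change the count was not tested. The unchanged count says little. The follicle cell marker tj went the other way, at 7.45, 6.96 and 6.09, while Egfr measured 4.22 on every array. The other measured follicle markers were highest on replicate 3, zfh1 at 5.01, 4.91 and 5.38 and dec at 6.98, 6.58 and 7.13. Whether the markers' differences bear on the members' values was not tested.

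**Figure D2:**
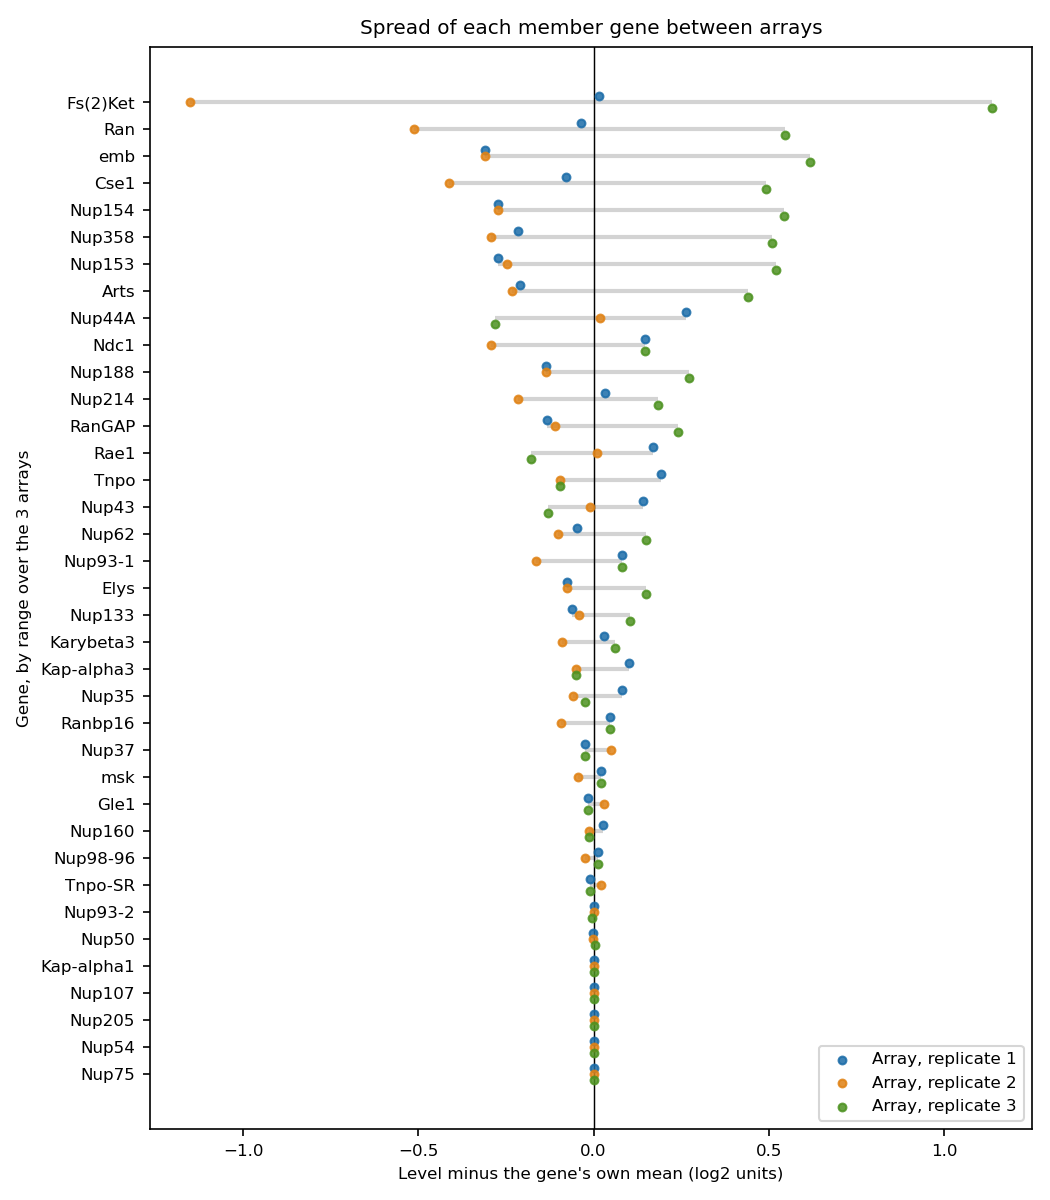
Level on each array minus the gene's own mean, in log2 units (x axis), for the 37 genes ordered by their range over the 3 arrays (y axis), with a grey bar from the lowest to the highest array. The 8 genes at the top all have replicate 3 (green) as the highest array, from Fs(2)Ket with a range of 2.29 to Arts with 0.67, and the 5 at the bottom have no spread.

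Other genes of the pathway were taken from lists that the symbol rule did not use. The shares to set beside the counts of these lists are those over all named genes. They were 45.7% above background, 48.8% below and 25.2% above the stricter level. Of 17 measured pore and receptor genes outside the rule, 13 were above background and 4 below. The 3 farthest above were RanBP3, a cofactor of CRM1 export in vertebrates, at 8.62 ± 0.23, Nxt1, the partner of the mRNA export receptors, at 8.29 ± 0.22, and Pen at 8.17 ± 0.26 (SD, n = 3). Rcc1, the exchange factor that charges Ran with GTP, measured 5.33 on every array. The outer ring subunit Sec13, shared with the COPII coat, measured 6.04 on every array, and mbo, the fly Nup88, 3.72, 3.72 and 3.74.

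The 4 genes below background were Ran-like, Ntf-2r, alphaKap4 and nxf4. Ran-like and alphaKap4 have names like those of members, and only their spelling kept them out of the members. Ran-like, alphaKap4 and nxf4 lay at the lowest value of 2.39 on every array, and Ntf-2r measured 2.40. Ntf-2, from which Ntf-2r derives and whose protein imports Ran, measured 6.88, 6.09 and 7.36.

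A further 3 names of the rule or the role lists were annotated under another symbol, and all were above background. Mgtor, the basket protein Megator listed as Mtor, measured 4.24, 3.99 and 5.07 and did not pass at the stricter level (limma, adjusted p = 0.10). Ipo9, listed as Ranbp9, measured 5.27, 5.34 and 5.55. Impbeta11, listed as Ranbp11, measured 3.89, 3.89 and 4.01. All 3 were highest on replicate 3, Mgtor by over 0.5 log2 units above the mean of the others.

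Of 14 measured mRNA export factors, 13 were above background and 9 above the stricter level. Those farthest above were Ref1 at 8.13 ± 0.30 and the helicase Hel25E at 7.31 ± 0.17, which load export receptors on mRNA, and the cap-binding gene Cbp20 at 5.41 ± 0.10 (SD, n = 3). The gene xmas, which links transcription to the pore, was unresolved at 2.45, 2.50 and 2.45. Phax was above background by only 0.061 log2 units, with a mean of 2.55, under the highest receptor gene at 2.79. With that receptor gene as the level, 12 of the 14 were above, beside 36.7% of all named genes. Of 10 measured genes of the nuclear lamina and envelope, 9 were above background and 8 above the stricter level. These were led by kuk, an inner envelope protein gene, at 8.65 ± 0.31, baf, which tethers chromatin to the envelope, at 7.40 ± 0.33, and the LEM-domain gene Ote at 6.51 ± 0.084 (SD, n = 3). Msp300, a nesprin gene of the outer envelope, was unresolved at 3.07, 2.59 and 2.59, and Lam and LamC were not analysed here.

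SUMO conjugation acts at the pore through Nup358. All 6 measured genes were above background and 4 above the stricter level, with Sumo, listed as smt3, at 8.82, 7.86 and 9.66. The subunits of the activating enzyme, Aos1 and Uba2, measured 7.79 ± 0.14 and 6.67 ± 0.25 (SD, n = 3). Ulp1, the SUMO protease that sits at the pore, measured 3.23, 3.23 and 3.96. Over the 4 pathway lists, with 17, 14, 10 and 6 measured genes, 6 genes were over 0.5 log2 units above the mean of the other arrays on replicate 3. These were Sumo, Ulp1, Ntf-2, the mRNA export factor thoc7, the envelope gene koi and Dbp80, the RNA helicase that Gle1 activates. By the same measure 2 genes were under it, Ref1 at 8.37, 8.23 and 7.80 and the envelope gene klar at 5.81, 5.53 and 4.73. Over all named genes the shares were 4.22% over and 1.61% under. Over genes above background they were 7.93% and 3.33%, and these counts carry no test.

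**Figure D3:**
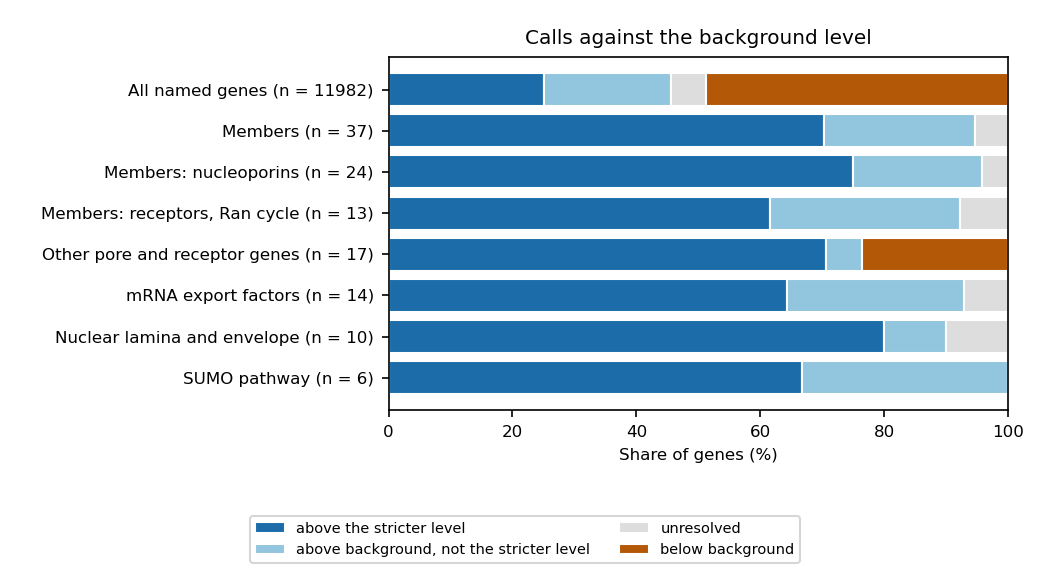
Share of measured genes in percent (x axis) above the stricter level, above background only, unresolved and below background, for all named genes, the 37 members, their nucleoporins and receptors, and the 4 pathway lists (y axis, with the number of genes). The members show 35 of 37 above background, and the 4 genes below background in the list of other pore and receptor genes are the only ones in these lists.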

How the data were processed

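The deposited table held log2 expression levels for 18952 probe sets on 3 arrays; the base was taken from their range, since neither scale nor centring is stated. Scanner files entered custom scripts, per the labels; how background, normalisation and probe summary were handled is not given in the sources used here; array medians were 2.399, 2.401 and 2.399, and values were used as deposited. Gene names came from the platform annotation. Single-gene probe sets (13647) named 11982 genes, of which 11894 matched the RefSeq gene table (assembly Release 6 plus ISO1 MT) by identifier. Each gene took its probe set with the highest mean. Tests used limma 3.58.1 in R 4.3.3: an intercept-only fit, one-sided each way, Benjamini-Hochberg over all genes. Most genes had identical values on all arrays, so the variance prior was estimated from the others. On simulated data over 11982 genes, the test recovered 72% of genes placed 0.25 log2 units over the level, and 88% of those placed 1 unit over it. The placed genes had normal noise with spreads of genes not identical on all arrays, while many real genes were identical. These shares may thus not hold for the real data. The members and lists were chosen with earlier results of these data known. Every member is named; of the pathway lists, genes not called above background and the 3 farthest above it are named, and any further gene named there was picked with its values known. Alternatives changed the background genes and level, variance model, probe set choice, normalisation, dim-gene filter and arrays.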

Additional observations from a re-analysis of the deposited data

Results flagged for a closer look

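Signal in probe sets that the gene results did not use came to notice for a pair of members. The probe set annotated to both Apl and Arts had a mean of 5.11, and the second probe set of Fs(2)Ket measured 3.50 on every array, both over the highest background receptor gene at 2.79. No group held enough arrays for a check of single samples that stand apart.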

How the results depend on the processing

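With 15 alternatives, 47 results gave 691 further values. Direction and call were unchanged, or a count moved by at most 1.5 times, in 637 of them. The settings with 1 spread pooled over genes and with centred arrays gave adjusted p-values far too small for 3 arrays. Ran, for example, had limma, adjusted p = 1.1e-207 with the pooled spread. Agreement under these settings says little. The exception among counts was the testis and accessory gland background, from 42 genes whose symbols begin with Acp, Sfp, Mst or Tektin. Only the prefix chose them, so Acph-1 was taken in with the Acp genes, and the level was not recomputed without it. The level of this background was 4.45, between Mst84B at 3.78 and Mst85C at 4.48. Over it lay Acp95EF at 4.73 and Acph-1 at 5.75, the highest of the set, while 38 of the 42 lay at or under 2.46. With it 1653 of all named genes were above background, 16 members (7 at the stricter level), 10 nucleoporins, 6 receptor and Ran genes, 8 other pore and receptor genes, 4 mRNA export, 5 lamina and 3 SUMO genes. There the members Elys (-0.23), emb (-0.077), Fs(2)Ket (-0.027), Gle1 (-0.0046), Kap-alpha3 (-1.79), Nup133 (-0.33), Nup153 (-1.22), Nup154 (-0.44), Nup160 (-1.71), Nup188 (-0.94), Nup214 (-0.66), Nup54 (-1.03), Nup62 (-0.35), Nup93-2 (-0.86), Ranbp16 (-1.22), Tnpo (-1.0) and Tnpo-SR (-0.65) lay under the level, in log2 units. With the highest receptor as level, Kap-alpha3 (-0.13) and Nup160 (-0.050) did. Apart from the testis and accessory gland background, 33 to 37 of the 37 members were above background, or 32 of the 33 left without probe sets of shared sequence. Without 1 array it was 33 to 35. Over all genes tested the share in these settings was 36.7% to 50.1%, and 92.9% of the 5937 genes left by the dim-gene filter. That filter keeps only genes with an array over the same level, so its 37 of 37 was nearly set in advance. The count of members high on replicate 3, with alternatives chosen after the data were seen, was 6 to 8; it was 6 of 33 without probe sets of shared sequence. No paired analysis was possible because the study has only 1 group.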
